A study of Homo sapiens with 6 samples.

Results

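The Polycomb complex genes examined here were EZH1, EZH2, SUZ12, EED, JARID2, PHF19, BMI1, RING1, RNF2 and CBX2, chosen by name as subunits of Polycomb repressive complexes 1 and 2 (PRC1 and PRC2). All 10 were found among the 26364 gene symbols of the deposited table, and all 10 passed the filter on low values. They were measured by RNAseq in A673/TR/shEF, Ewing sarcoma cells in which EWSR1 and FLI1 are fused, engineered with an shRNA against the fusion mRNA that doxycycline switches on. The 3 EWSR1::FLI1 high samples were untreated and the 3 EWSR1::FLI1 low samples received 1 µg/mL doxycycline for 72 h, and all 6 carry the shRNA construct. Below, control stands for EWSR1::FLI1 high and knockdown for EWSR1::FLI1 low. No sample analysed here received doxycycline without the shRNA, so an effect of the drug and an effect of the knockdown cannot be told apart. The sources call the samples of a condition both independent clones and experiments, and p-values measure only the spread between these samples, which may be technical.

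Polycomb proteins keep genes silent during development and in stem cells. PRC2 places methyl groups on lysine 27 of histone H3 through its catalytic subunit, EZH2 or EZH1, which works only together with SUZ12 and EED. PRC1 contains a RING-type ubiquitin ligase, RNF2 or RING1, that marks histone H2A, paired with a PCGF protein such as BMI1, and in its canonical form a CBX protein that reads the PRC2 mark. EZH2 is known as a target of EWSR1::FLI1 and, in many cell types, as a gene induced in dividing cells by E2F factors.

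The libraries held between 6980361 and 16658933 reads on genes, the deepest being EWSR1::FLI1 low replicate 3, and the members held from 35 reads (BMI1) to 2454 reads (EZH2) in a library. At that depth 3 reads correspond to between 0.0185 and 0.153 FPKM for these genes, so each was detected in all 6 libraries. FLI1, which forms the 3′ part of the targeted mRNA, was at 11.3, 12.7 and 14.2 FPKM in the control libraries and at 2.91, 4.29 and 3.68 FPKM in the knockdown libraries. Its log2 fold change was -1.57 (adjusted p = 0.000676, limma). Of 6 Ewing sarcoma markers, all expressed in every library, FLI1, LIPI, NKX2-2, NR0B1 and STEAP1 were called lower (limma), where 3.37% of all genes were. CD99 was not called, though it too was lower in each knockdown library (log2 fold change -0.53, adjusted p = 0.067, limma). The 8 markers of blood, endothelium, epithelium, heart muscle and liver were at most at 1.56 FPKM, reached by the endothelial gene PECAM1. None of these 8 was at 0 throughout. The summed level of these 8 markers ran from 1.72 to 2.90 FPKM in control and from 2.64 to 4.52 FPKM in knockdown libraries. PECAM1 (log2 fold change 0.66, adjusted p = 0.0333, limma) was higher in each low library. Of the 8 markers, only 2 passed the filter on low values, and PECAM1 did so only through its knockdown level. The part of these 8 markers in the results was not tested.

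Promoter sequences are shown for the catalytic pair EZH2 and EZH1 and for SUZ12, since EZH2 and SUZ12 fell upon knockdown while EZH1 did not pass the test. Windows of 300 bases around annotated starts (250 before, 50 after) were available for 9 members in the RefSeq table of GRCh38.p14, with 13 windows in all, and CBX2 had no entry. Capitals mark matches on either strand to an E2F-type motif (TTTGGCGC, TTTCGCGC, TTTCCCGC or TTTGCCGC) or to CCAAT. The sequences run 5′ to 3′ on the gene's strand.
EZH2, 250 bases before the start (chr7:148884292-148884541, minus strand): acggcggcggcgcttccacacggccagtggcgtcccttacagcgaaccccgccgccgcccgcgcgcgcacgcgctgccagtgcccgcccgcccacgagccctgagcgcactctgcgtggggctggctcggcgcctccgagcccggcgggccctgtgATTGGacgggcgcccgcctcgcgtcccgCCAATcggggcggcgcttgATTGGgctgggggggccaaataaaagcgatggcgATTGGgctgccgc
EZH2, first 30 bases from that start (chr7:148884262-148884291, minus strand): gTTTGGCGCtcggtccggtcgcgtccgaca
SUZ12, 250 bases before the start (chr17:31936757-31937006, plus strand): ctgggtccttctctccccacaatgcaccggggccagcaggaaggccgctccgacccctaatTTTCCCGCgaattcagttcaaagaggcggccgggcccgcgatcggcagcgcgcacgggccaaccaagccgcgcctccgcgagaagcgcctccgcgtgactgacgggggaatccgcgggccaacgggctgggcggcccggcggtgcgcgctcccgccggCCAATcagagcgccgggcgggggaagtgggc
EZH1, 250 bases before the start (chr17:42745041-42745290, minus strand): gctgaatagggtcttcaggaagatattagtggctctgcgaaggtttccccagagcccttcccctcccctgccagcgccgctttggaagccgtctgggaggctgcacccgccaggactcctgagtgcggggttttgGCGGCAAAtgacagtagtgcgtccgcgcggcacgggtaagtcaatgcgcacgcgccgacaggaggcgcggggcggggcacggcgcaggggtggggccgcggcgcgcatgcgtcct

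The EZH2 window held 4 CCAAT matches, beginning 94, 66, 47 and 13 bases before the start, and an E2F-type match at base 2 after it. An E2F-type match began 189 bases before the SUZ12 start and 115 bases before the EZH1 start, so the letters occur beside a gene that fell and beside one that was not called. Among all 35116 promoter windows, 3.31% held an E2F-type match and 34.6% a CCAAT. A window of PHF19, which was not called either, also held an E2F-type match, and the second EZH2 window and the windows of EED, JARID2, BMI1, RING1 and RNF2 held none. The ETS-type motif CCGGAAGT, found in 4.14% of all windows, and 3 consecutive GGAA, the repeat type known to be bound by EWSR1::FLI1, found in 0.0854%, were in none of the 13 windows of the members. A match describes letters only, and binding was not measured.

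Upon EWSR1::FLI1 knockdown, EZH2, SUZ12 and CBX2 fell, by 1.17, 0.94 and 1.21 in log2(FPKM + 1) units. EED and RNF2 were also lower in all 3 knockdown libraries without passing the test at an adjusted p under 0.01. EZH1, RING1 and PHF19 had log2 fold changes between -0.11 and 0.16. Thus 3 of 10 members were called lower (limma, Benjamini-Hochberg over 15504 genes), where 3.37% of all genes tested were called lower and 7.88% were called in either direction. No member was called higher, where 4.51% of all genes were, and for 10 genes this count is near that share. The count of higher members was 0 also at an unadjusted p under 0.05, where 15.6% of all genes were higher, and with limma-voom on recovered reads, which called 6.1% of all genes higher. At an unadjusted p under 0.05, 5 members were lower, where 18.7% of all genes were. The median log2 fold change was -0.46 over the members and -0.05 over all genes tested, and 8 of the 10 were negative. The 3 knockdown libraries lay below the 3 control libraries for 6 of 10 members, which 23.6% of all genes did, and for the other 4 the groups overlapped. Without EWSR1::FLI1 high replicate 1, 2 or 3 the count fell to 0 members, while the genes called lower over the whole table went from 522 to 197, 167 and 157 (limma). In each of these fits 5 members were lower at an unadjusted p under 0.05, where 13.6%, 14.1% and 12.2% of all genes were. Without EWSR1::FLI1 low replicate 2 the count was 1, CBX2, and 282 genes were called lower over the whole table. In bulk RNA, fewer cells that express a gene and less RNA per cell cannot be told apart.

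**Figure D1:**
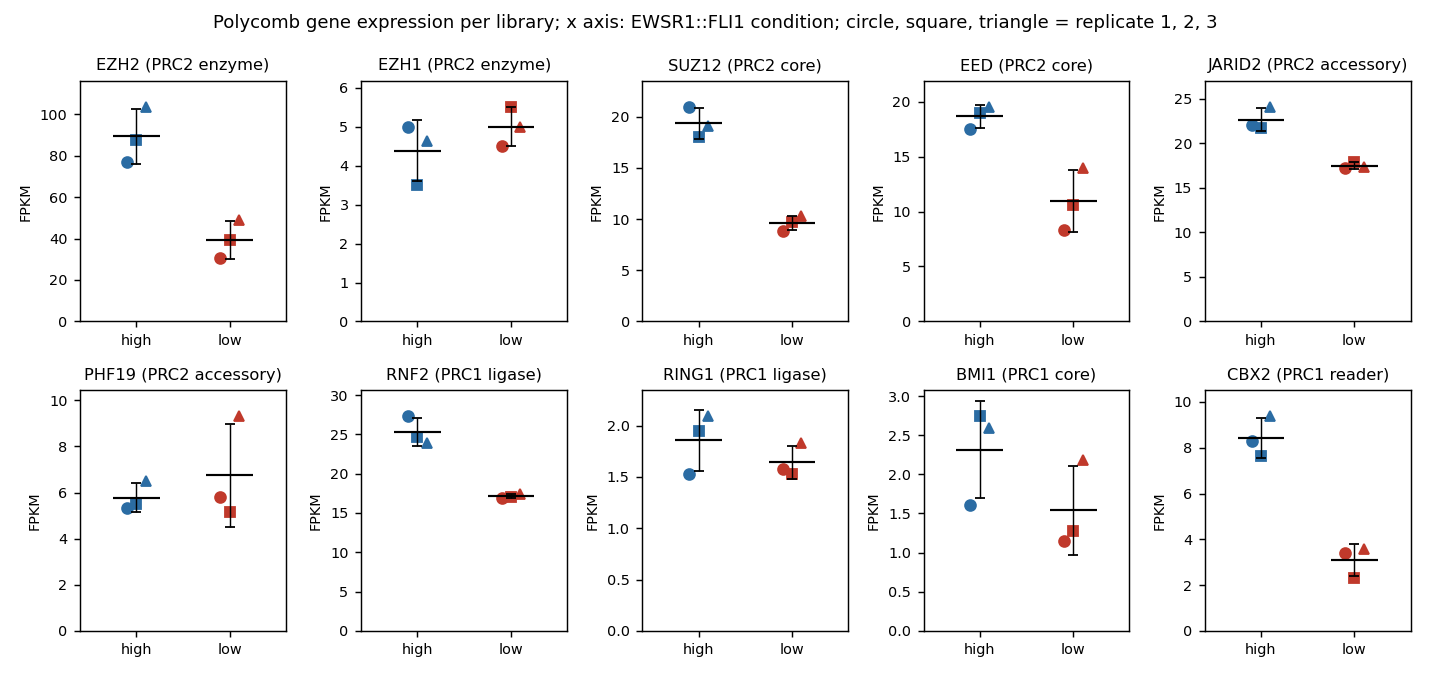
FPKM of each of the 10 Polycomb genes (y axis) in the EWSR1::FLI1 high and low libraries (x axis), with symbols for replicates 1 to 3, a bar at the mean and whiskers of 1 SD (n = 3). EZH2, SUZ12, EED, JARID2, RNF2 and CBX2 separate completely, while EZH1, PHF19, RING1 and BMI1 overlap.

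EZH2 (ENSG00000106462, chromosome 7, 148504349 to 148581413, minus strand, GRCh37), the main histone methyltransferase of PRC2 in dividing cells, was the most abundant member. Levels were 77.0, 87.4 and 104 FPKM across the controls and at 30.4, 39.1 and 48.7 FPKM upon knockdown. The highest knockdown library stayed below the lowest control library. Each list of 3 values gives replicates 1, 2 and 3 in turn. The mean was 89.3 ± 13.4 FPKM in control and 39.4 ± 9.17 FPKM in knockdown cells (SD, n = 3), a ratio of 0.441. EZH2 fell by 1.17 on the log2 scale (adjusted p = 0.00751, limma), with a standard error of 0.22. Leaving out EWSR1::FLI1 high replicate 1, 2 or 3 or EWSR1::FLI1 low replicate 2 moved the adjusted p (limma) to 0.0221, 0.0412, 0.049 and 0.0217, while the log2 fold change lay from -1.34 to -1.01 over all 6 such fits.

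EZH1 (ENSG00000108799, chromosome 17, 40852293 to 40897067, minus strand), the alternative catalytic subunit that is typical of cells at rest, stood at a far lower level. Its values were 5.0, 3.51 and 4.64 FPKM in control and 4.50, 5.51 and 4.99 FPKM in knockdown libraries. The groups overlapped, with a log2 fold change of 0.16 (95% interval -0.23 to 0.56, adjusted p = 0.555, limma). Within a library EZH2 exceeded EZH1 by 15.4, 24.9 and 22.3 times in control and by 6.75, 7.10 and 9.78 times in knockdown libraries. The catalytic pair therefore kept EZH2 on top in every library while its excess was smaller in each knockdown library. The difference in log2(FPKM + 1) between EZH2 and EZH1 was lower by 1.34 in knockdown cells (exact permutation test, two-sided, p = 0.1, the smallest that 3 samples against 3 allow, and 0.167 after Benjamini-Hochberg adjustment over 5 paralogue pairs).

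SUZ12 (ENSG00000178691, chromosome 17, 30264026 to 30328057, plus strand), the scaffold subunit of PRC2, was at 21.0, 18.0 and 19.1 FPKM across the controls. Upon knockdown it was at 8.84, 9.72 and 10.3 FPKM. The values within each condition lay close together and the groups were well apart. SUZ12 fell by 0.94 on the log2 scale (standard error 0.17, adjusted p = 0.00584, limma), from 19.3 ± 1.5 to 9.61 ± 0.717 FPKM (SD, n = 3). Its adjusted p (limma) was between 0.0197 and 0.0445 in 4 of the 6 fits that left out a library, those without EWSR1::FLI1 high replicate 1, 2 or 3 or EWSR1::FLI1 low replicate 2. The pseudogene SUZ12P1, a partial copy of SUZ12, was listed at 13.2 ± 1.29 and 8.40 ± 0.99 FPKM (SD, n = 3), from 44 to 106 reads a library, and reads that fit both copies may have been split or lost.

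EED (ENSG00000074266, chromosome 11, 85912254 to 85989855, plus strand), the subunit that binds trimethylated lysine 27 and stimulates the enzyme, was at 17.5, 18.9 and 19.5 FPKM in control libraries. Upon knockdown it was at 8.31, 10.6 and 13.9 FPKM. All knockdown libraries were lower, with a wide spread among them. The log2 fold change was -0.74 (standard error 0.21, 95% interval -1.22 to -0.27), and the adjusted p of 0.0367 (limma) missed the limit of 0.01. With quantile normalization and with sample quality weights it was 0.00645 and 0.00165 (limma). EZH2 exceeded EED by 4.40, 4.62 and 5.30 times in control and by 3.66, 3.69 and 3.5 times in knockdown libraries.

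JARID2 and PHF19, accessory proteins that help bring PRC2 to chromatin, did not pass the test. JARID2 (ENSG00000008083, chromosome 6, 15246300 to 15522273, plus strand) was at 22, 21.7 and 24.1 FPKM in control and at 17.2, 17.9 and 17.3 FPKM in knockdown libraries. The groups did not overlap, and the log2 fold change was -0.35 (95% interval -0.72 to 0.02, adjusted p = 0.166, limma). PHF19 (ENSG00000119403, chromosome 9, 123617929 to 123657174, minus strand) had 5.33, 5.52 and 6.49 FPKM in control and 5.79, 5.16 and 9.31 FPKM in knockdown libraries. EWSR1::FLI1 low replicate 3 alone was above the control range. Its log2 fold change of 0.16 (95% interval -0.34 to 0.66, adjusted p = 0.651, limma) became -0.064 without that library. MTF2, a PHF19 paralogue, was at 44.6 ± 3.95 and 28.7 ± 2.78 FPKM (SD, n = 3), and the difference in log2(FPKM + 1) of PHF19 over MTF2 was higher by 0.78 in the knockdown (exact permutation test, two-sided, p = 0.1, adjusted p = 0.167 over 5 pairs).

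Of the catalytic pair of PRC1, RNF2 (ENSG00000121481, chromosome 1, 185014658 to 185071735, plus strand), also called RING1B, was at 27.3, 24.7 and 23.8 FPKM in control libraries. It was at 16.9, 17 and 17.4 FPKM in knockdown libraries, the tightest group of any member relative to its mean. The groups were separate, with a log2 fold change of -0.53 (standard error 0.17, 95% interval -0.91 to -0.16, adjusted p = 0.0526, limma) that missed the limit. With sample quality weights the adjusted p was 0.00294 (limma). RING1 (ENSG00000204227, chromosome 6, 33176277 to 33180499, plus strand), the paralogous ligase, was at 1.53, 1.95 and 2.09 FPKM in control and at 1.57, 1.53 and 1.83 FPKM in knockdown libraries. Its groups overlapped (log2 fold change -0.11, 95% interval -0.47 to 0.25, adjusted p = 0.682, limma). The transcript length behind its FPKM, set against its annotated exons, was 8.11 times that of the median gene, a ratio higher than in 99.8% of 13726 genes. For the other members it was between 0.397 times (EZH2) and 1.40 times (JARID2), so the level of RING1 is not comparable with theirs. The cause was not tested. EED was at 0.51 and EZH1 at 0.94 times, so level ratios and the level order among the other members also depend on these lengths. The difference in log2(FPKM + 1) of RNF2 over RING1 was lower by 0.43 in the knockdown (exact permutation test, two-sided, p = 0.1, adjusted p = 0.167).

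BMI1 (ENSG00000168283, chromosome 10, 22610028 to 22620413, plus strand), the PCGF protein of canonical PRC1 known for repressing the CDKN2A locus, had the fewest reads. It was at 1.61, 2.74 and 2.60 FPKM in control and at 1.15, 1.28 and 2.19 FPKM in knockdown libraries, from 58, 75 and 69 reads and from 35, 36 and 117 reads. The groups overlapped (log2 fold change -0.39, 95% interval -0.88 to 0.10, adjusted p = 0.241, limma). The read-through gene COMMD3-BMI1 (22605317 to 22618471) overlaps BMI1 and was listed at 0 in all libraries, so reads shared by both names may not have been counted for BMI1. CDKN2A and CDKN2B, targets of BMI1 in other cells, had at most 1 read in any library and could not be compared.

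CBX2 (ENSG00000173894, chromosome 17, 77751947 to 77761782, plus strand), a chromodomain protein that reads the PRC2 mark and compacts chromatin, was the third member that fell. It was at 8.30, 7.63 and 9.38 FPKM in control and at 3.40, 2.32 and 3.58 FPKM in knockdown libraries. Every knockdown library was below every control library by a wide margin. The mean went from 8.44 ± 0.881 to 3.10 ± 0.683 FPKM (SD, n = 3), so that CBX2 fell by 1.21 on the log2 scale (standard error 0.18), with an adjusted p of 0.00267 (limma). At a pseudocount of 1 this understates a gene at low FPKM, and on recovered reads limma-voom gave -1.45 (adjusted p = 0.000922). The adjusted p (limma) was between 0.0129 and 0.0188 without EWSR1::FLI1 high replicate 1, 2 or 3. The difference in log2(FPKM + 1) of CBX2 over CBX8 overlapped between the groups, lower by 0.30 in the knockdown (exact permutation test, two-sided, p = 0.2, adjusted p = 0.25), and that of BMI1 over PCGF2 did too, lower by 0.33 (exact permutation test, two-sided, p = 0.3, adjusted p = 0.3).

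**Figure D2:**
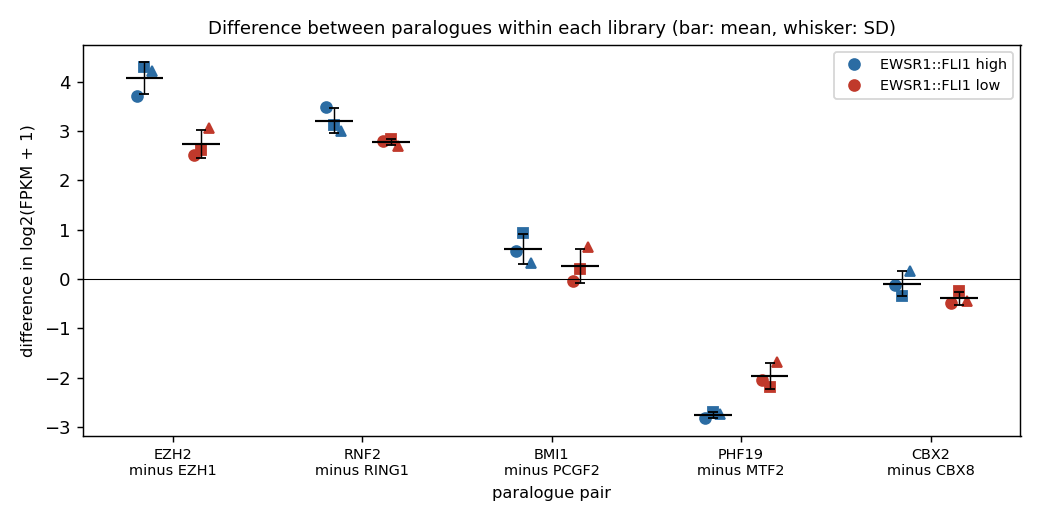
Difference in log2(FPKM + 1) between the paralogues of 5 pairs within each library (y axis), by pair (x axis), with symbols for replicates 1 to 3, a bar at the mean and whiskers of 1 SD (n = 3). EZH2 over EZH1 and RNF2 over RING1 are lower and PHF19 over MTF2 is higher in each EWSR1::FLI1 low library, and the other 2 pairs overlap.

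Ordered by mean FPKM in control cells, the members ran EZH2, RNF2, JARID2, SUZ12, EED, CBX2, PHF19, EZH1 and BMI1, with RING1 left out of this order for its length. Among neighbours, RNF2 and JARID2 overlapped, as did SUZ12 and EED, and the other pairs were separate. In knockdown cells the order was EZH2, JARID2, RNF2, EED, SUZ12, PHF19, EZH1, CBX2 and BMI1. CBX2 thus passed from above PHF19 and EZH1 to below both. JARID2 and RNF2, EED and SUZ12, SUZ12 and PHF19, and PHF19 and EZH1 overlapped with each other there.

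Proliferation markers were also lower upon knockdown. All 12 markers on the list were lower in every EWSR1::FLI1 low library than in any EWSR1::FLI1 high library, as 23.6% of all genes were. All 12 were lower at an adjusted p under 0.05 (limma), where 9.91% of all genes were. Limma-voom called 9 lower, where it called 5.06% of all genes lower. At an adjusted p under 0.01, 5 were called lower (limma), where 3.37% of all genes were. These were MCM6, MCM2 and PCNA, which act in DNA replication, with log2 fold changes of -1.23, -1.44 and -1.19, RRM2, which makes deoxynucleotides, at -1.68, and E2F1. E2F1, a transcription factor of the G1 to S transition, went from 13.3 ± 1.70 to 3.65 ± 1.05 FPKM (SD, n = 3), a log2 change of -1.64 (adjusted p = 0.000999, limma). The sum of the 12 markers ranged from 1119 to 1291 FPKM in control and from 374 to 784 FPKM in knockdown libraries, the highest being EWSR1::FLI1 low replicate 3. That library had 2.10 times the sum of EWSR1::FLI1 low replicate 1. The same ratio was 1.91 for BMI1, 1.68 for EED, 1.61 for PHF19 and 1.6 for EZH2. It was between 1.00 and 1.16 for the other 6 members, SUZ12, RING1, EZH1, CBX2, RNF2 and JARID2. The members with the higher ratio thus included genes that were not called, BMI1, EED and PHF19, beside EZH2. This ratio leaves out EWSR1::FLI1 low replicate 2, and for CBX2 replicate 3 was at 1.55 times replicate 2. EWSR1::FLI1 low replicate 3 held the highest of the 3 knockdown values for all 12 markers, for 8 of 10 members (the exceptions being EZH1 and JARID2) and for 48.4% of all genes tested. EWSR1::FLI1 low replicate 1 held the lowest for all 12 markers, 7 of 10 members and 56.4% of all genes, so this order was common in the whole table. The part of proliferation in the changes of the members was not tested.

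**Figure D3:**
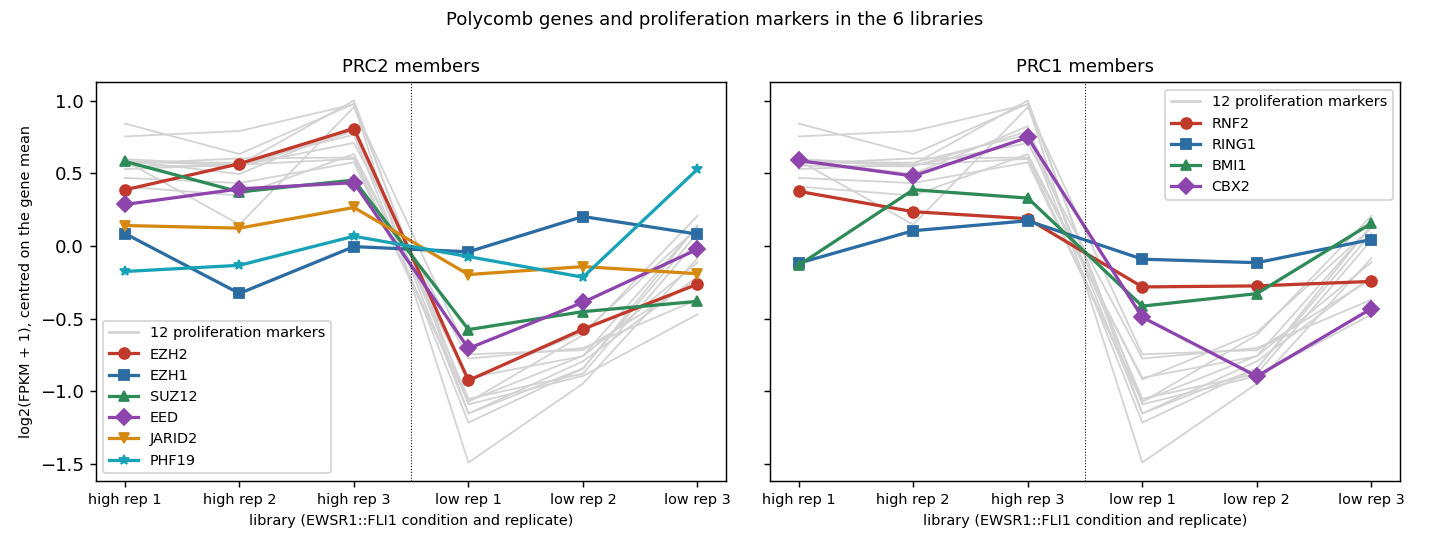
Log2(FPKM + 1) centred on each gene's mean (y axis) in the 6 libraries (x axis), for the 6 PRC2 members on the left and the 4 PRC1 members on the right, over 12 proliferation markers in grey, where lines only link the values of a gene. Among the knockdown libraries, replicate 3 is the highest for all 12 markers and for 8 of the 10 members, by a ratio to replicate 1 that runs from 1.03 for RNF2 to 1.91 for BMI1.

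The genes whose profile over the 6 libraries was nearest to EZH2, by the root mean square difference of centred log2(FPKM + 1), were NASP, a histone chaperone, at 0.0432, RBL1, a pocket protein of the retinoblastoma family, at 0.0515, and SPR, a tetrahydrobiopterin synthesis enzyme, at 0.0578. EZH2 itself varied by 0.63 around its mean on that measure. Nearest to SUZ12 were ARID3B (0.0512), EPC1 (0.0561) and KIAA1551 (0.0697). Nearest to CBX2 were ZNF106 (0.0564), EFNB1 (0.062) and PASK (0.0633). These are likenesses over 6 libraries that fall into 2 groups, so any gene with a similar change is near.

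The wider Polycomb machinery was taken from 3 lists of 42 genes, of which 40 were tested. A single gene, SCML2, was called lower, which is 2.5% of the 40, and none was called higher. At an adjusted p under 0.05 (limma), 6 of the 40 were lower, where 9.91% of all genes were, and none was higher, where 9.87% were. At an unadjusted p under 0.05, 14 were lower, where 18.7% of all genes were, and 1 was higher, where 15.6% were. Limma-voom called 1 lower and 0 higher, where it called 5.06% of all genes lower and 6.1% higher. The median log2 fold change was -0.27, against -0.05 for all genes. SCML2, a PRC1-associated protein, was at 7.42, 6.54 and 6.95 FPKM in control and at 2.92, 1.97 and 2.93 FPKM in knockdown libraries. It fell by 1.15 on the log2 scale (standard error 0.17, adjusted p = 0.00259, limma). The call was lost without EWSR1::FLI1 high replicate 1, 2 or 3, which left 0 of the 40 called (limma).

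By complex, the 7 tested PRC2 genes beyond the members included 0 called genes (limma), where 7.88% of all genes were called in either direction. For so short a list this count is near that share. Limma-voom also called 0, where it called 5.06% of all genes lower and 6.1% higher. At an unadjusted p under 0.05 (limma), 5 of the 7 were lower, where 18.7% of all genes were. Also, 5 of the 7 had all knockdown libraries below all controls, as 23.6% of all genes did. Among these was MTF2, with a log2 change of -0.62 (adjusted p = 0.0387, limma). RBBP4 and RBBP7, the histone-binding subunits that PRC2 shares with other complexes, had log2 fold changes of -0.52 and -0.51 with adjusted p of 0.0717 and 0.127 (limma). Of the 22 tested PRC1 genes beyond the members, 12 had all knockdown libraries below all controls, where again 23.6% of all genes did. CBX8 had a log2 change of -0.92 (adjusted p = 0.0193, limma), and RYBP, a subunit of variant PRC1, had one of 0.00. Of the 11 genes of PR-DUB, the complex that removes ubiquitin from histone H2A, 0 were called by limma, where 7.88% of all genes were. Limma-voom called 0 too, where it called 5.06% of all genes lower and 6.1% higher. At an unadjusted p under 0.05 (limma), 1 was lower and 1 higher, where 18.7% and 15.6% of all genes were. The median log2 fold change of these 11 was -0.16.

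**Figure D4:**
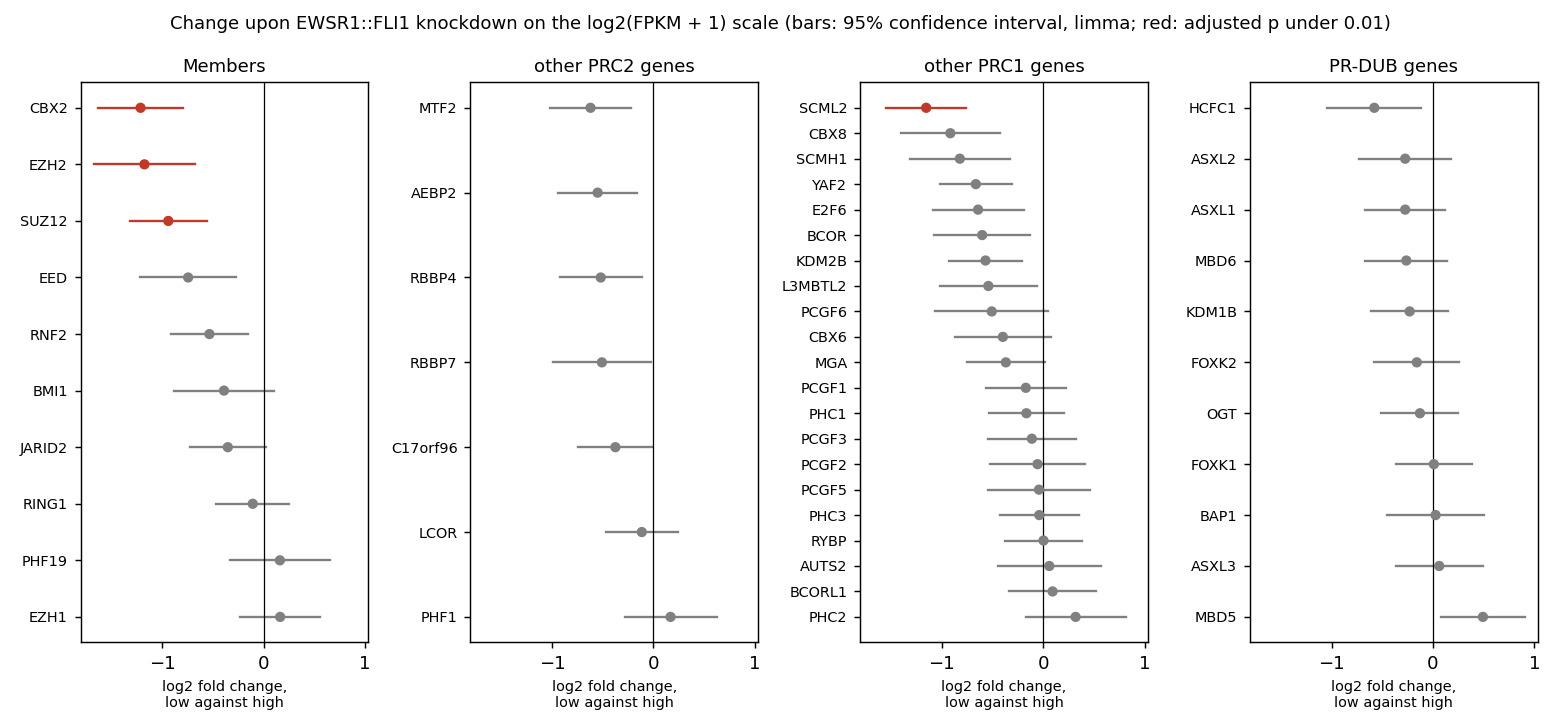
Log2 fold change of EWSR1::FLI1 low against high on the log2(FPKM + 1) scale (x axis) with 95% confidence intervals from limma, for the 10 members and other tested genes of PRC2, PRC1 and PR-DUB (y axis). Red marks an adjusted p under 0.01, reached by CBX2, EZH2, SUZ12 and SCML2.

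Of the 6 listed enzymes that oppose PRC2, 0 were called in either direction, where 7.88% of all genes were. For so short a list this count is near that share. KDM6A, which removes methyl groups from lysine 27, was at 16.5 ± 1.52 FPKM in control and 17.2 ± 0.349 FPKM in knockdown cells (SD, n = 3), and its log2 fold change was 0.06 (95% interval -0.32 to 0.44, adjusted p = 0.845, limma). KMT2A had the largest change of the list, -0.41 (95% interval -0.91 to 0.09, adjusted p = 0.221, limma), so a change is not excluded. Negative log2 fold changes were found for 4 of the 6 and positive ones for 2. At an unadjusted p under 0.05, 0 were lower or higher, where 18.7% and 15.6% of all genes were. Limma-voom called 0, where it called 5.06% of all genes lower and 6.1% higher.

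Genes that Polycomb represses in other cells were mostly below the level at which they could be tested. Of 20 listed targets, mostly developmental transcription factors, 6 passed the filter on low values. GATA6, a zinc finger factor of endoderm and heart, rose from 0.656, 0.565 and 0.479 FPKM in control to 2.05, 2.23 and 1.89 FPKM in knockdown libraries. This was 0.96 on the log2 scale (standard error 0.15), and limma gave an adjusted p of 0.00337. No other target was called by limma on FPKM, which called 3.37% of all genes lower and 4.51% higher. Limma-voom called 1 lower and 1 higher, where 5.06% and 6.1% of all genes were called. Of the 6 tested, 4 had negative and 2 positive log2 fold changes, with a median of -0.28. PAX3 (-0.49) and PAX7 (-0.55) had all knockdown libraries below all controls, as 23.6% of all genes did. PAX7, at 0.262 FPKM in knockdown cells, passed the filter only through its control level. Of 5 listed genes of neural and endothelial differentiation, 4 were tested and 3 were called higher (limma), where 4.51% of all genes were. Limma-voom called 3 of them higher and 1 lower, where it called 6.1% and 5.06% of all genes. GAP43, a growth cone protein, went from 16.6 ± 2.54 to 149 ± 27.0 FPKM (SD, n = 3), a log2 change of 3.08 (adjusted p = 6.3e-05, limma). EMP1, a membrane protein, went from 10.4 ± 4.19 to 75.0 ± 26.7 FPKM (log2 fold change 2.74, adjusted p = 0.00105, limma), and EPHB2, an ephrin receptor, from 0.79 ± 0.058 to 2.75 ± 0.898 FPKM (log2 fold change 1.04, adjusted p = 0.00795, limma). NGFR, the low-affinity neurotrophin receptor, was at 7.25 ± 2.97 and 2.69 ± 0.145 FPKM, a log2 fold change of -1.10 that missed the limit (adjusted p = 0.0139, limma). Histone marks were not measured.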

How the data were processed

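Paired-end RNAseq reads of 6 samples of A673/TR/shEF cells were mapped by the authors to GRCh37 with STAR (2.5.0b per the labels), and the methods name Cufflinks 2.2.1. Deposited by the authors were a table of FPKM for each symbol and sample, already scaled between libraries, and a DESeq2 (1.6.3) table, of which only the mean signal per gene (mean normalized count, deposited by the authors) was used. Its fold changes, errors and p-values were not. From both, reads per gene were recovered: 100% of values above 0 came out whole within 0.1 reads. limma 3.58.1 (R 4.3.3, eBayes with trend) was run on log2(FPKM + 1) of genes whose mean reached 0.5 FPKM. Benjamini-Hochberg adjusted p under 0.01 was called. The study's count test does not take FPKM and was not run on the recovered reads. Limma on log2(FPKM + 1) was chosen as the main test, with limma-voom on recovered reads as an alternative. Paralogue differences used exact permutation tests. Values just above 0 are understated by the pseudocount, and reads cover counting error only. Replicates differed by more than sampling noise (chi-square per degree of freedom from 4.75 to 36.9). In simulated data with a log2 change of 3.5 in 200 of 15504 genes, the fit recovered 98.5% with 1 false call. That change is larger than any of the members, so recovery of changes of their size was not tested. Members and lists were chosen with earlier results of these data known. Named genes are the members, called genes of each list, the paralogues, the 3 nearest profiles of each called member, and, chosen after their values were seen, other list genes given with values. Gene positions are from GENCODE v44 lifted to GRCh37, promoters from RefSeq (GRCh38.p14). Alternatives were another pseudocount, filters, scalings, weights, a replicate block, limma-voom, a limit of 0.05 and leaving out each library. Python 3.11.15 with pandas 2.3.3, numpy 2.4.6, scipy 1.17.1 and matplotlib 3.10.9 was used. The value of 1 listed gene is not reported here.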

Additional observations from a re-analysis of the deposited data

How the results depend on the processing

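The log2 fold changes of FLI1 and of the 10 Polycomb genes kept their sign in all limma fits but that of PHF19 without EWSR1::FLI1 low replicate 3, at -0.064 (from -0.064 to 0.31 over the 6 libraries left out in turn). EZH2 stayed between -1.34 and -1.01 when a library was left out. Without a filter on low values its log2 fold change was -1.17 with an adjusted p of 0.0146 (limma). The fold change was the same as in the main fit, and 24488 genes were tested in place of 15504. That number enters both the Benjamini-Hochberg adjustment and the eBayes fit, whose parts were not separated. The number of members called lower was 5 with sample quality weights, which added EED and RNF2, and ran from 0 to 3 when a library was left out. Of the other Polycomb genes, 2 were called lower with quantile normalization, 9 with sample quality weights, 6 at an adjusted p under 0.05, and from 0 to 1 when a library was left out. Over all genes, 1222 were called, against 753 without a filter, 1984 with quantile normalization, 4745 with sample quality weights, 3067 at an adjusted p under 0.05, and from 475 to 2334 when a library was left out. The replicate numbers were not taken to pair the samples, since same-numbered libraries deviated together with r = 0.27, 0.09 and 0.12, and not every library correlated best with its own number. With the replicate block, 1702 genes were called over the whole table (limma), and EZH2 had an adjusted p of 0.00276 (limma). EZH2, SUZ12 and CBX2 were the 3 members called in that fit, and 2 other Polycomb genes were called lower. The EZH2 to EZH1 difference with the block was -1.34 (exact sign permutation over 3 pairs, p = 0.25, the smallest possible). BMI1, with 35 to 117 reads, was the least precise member by depth.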
